A study of Mus with 6 samples.

Results

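The 10 genes described here are the classical markers of cortical and amygdalar interneurons: the peptide genes Sst, Cort, Npy, Vip and Cck, the calcium-buffer genes Pvalb, Calb1 and Calb2, the nitric oxide synthase gene Nos1 and the matrix glycoprotein gene Reln. They were taken by gene name from a deposited table of 54532 genes, where each name matched 1 row. All 10 were among the 13087 genes whose mean level over the 6 libraries reached 1 FPKM, a read count divided by gene length and library size. The libraries came from basolateral amygdala of female mice: 3 of CNTNAP4-KO genotype (KO1, KO2 and KO3) and 3 of Wild type genotype (WT1, WT2 and WT3). No treatment is given for either group. The labels give neither the targeted allele, the strain nor the age, and do not say whether a library is 1 animal or a pool, so the p-values measure the spread between these libraries, which may be technical.

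Interneurons of the amygdala release GABA and restrain the glutamatergic projection neurons that make up most of its basolateral part. They are sorted into classes by the peptides and calcium-binding proteins they contain. Parvalbumin cells are mostly fast-spiking and contact the soma and initial axon, somatostatin cells mostly contact dendrites and often co-express neuropeptide Y, and many VIP cells contact other interneurons. Cck, Calb1 and Reln are also transcribed in some projection neurons, and Sst, Npy, Nos1 and the calbindins in neurons of neighbouring nuclei. In bulk tissue, fewer cells of a class and less RNA per cell cannot be told apart.

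The libraries held 15933029 to 17789798 reads, recovered from the FPKM values. Cntnap4 itself was at 1.08, 1.19 and 1.28 FPKM in KO1 to KO3, against 3.53, 3.90 and 2.15 in WT1 to WT3, with no overlap (log2 fold change -0.92, SE 0.18, limma adjusted p = 0.302). The glutamatergic markers Slc17a7 and Camk2a were abundant in every library, at 201 to 364 and 417 to 459 FPKM in KO and 208 to 285 and 341 to 499 FPKM in WT. Libraries differed in markers of neighbouring tissue. The 10 striatal projection neuron markers summed to 61.8 to 377 FPKM in KO and 117 to 893 FPKM in WT, with the highest sums in KO3 and WT3. The 10 hypothalamic peptide genes summed to 2.40 to 4.50 FPKM in KO and 4.94 to 36.8 FPKM in WT. WT1 and WT2 were highest in hypothalamic peptides: Trh was at 0.308, 0.792 and 2.02 FPKM in KO1 to KO3 and at 18.7, 21.6 and 1.28 FPKM in WT1 to WT3. WT1 and WT3 therefore stood apart for different lists, and a marker's log2 fold change is also given without them where it moved by over 1.5 times or changed direction, and in some other cases.

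No interneuron marker passed the test between genotypes. On the log2(FPKM + 1) scale, 0 of 10 passed an adjusted p of 0.05 in limma over all tested genes, where 0.00764% of genes did. The smallest adjusted p among the 10 was 0.302, and voom on the recovered reads also called 0. At an unadjusted p under 0.05, 3 of 10 were lower in KO (Sst, Calb1 and Nos1) and 0 were higher, against 7.25% lower and 7.05% higher among all tested genes; voom gave 3 lower as well, against 7.72% of all genes. That count moved with single libraries. Nos1 alone was lower without KO2, KO3 or WT2 (3.81%, 6.09% and 6.85% of all genes), with no filter (4.38%) and with a common sum (4.43%). Without KO1 the lower markers were Calb1 and Nos1 (5.78%), and without WT1 they were Cort and Nos1 (5.26%). Without WT3 they were Sst, Calb1, Calb2, Nos1 and Reln (9.65%), and Pvalb was higher (8.79%). Vip was higher without WT2 (8.21%). With replicate number as a block Sst, Calb1 and Nos1 were lower (9.92%) and Pvalb was higher (7.86%). The KO values lay wholly below the WT values for 2 of 10 (Sst and Nos1) and wholly above for 0, against 10.1% and 11.9% of all tested genes. The median log2 fold change of the 10 was -0.11, beside 0.01 over all tested genes, with 4 positive and 6 negative; 48.7% of all tested genes were negative.

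Sst and Cck were the most abundant of the 10 in both groups. In KO the order by mean FPKM was Sst (206), Cck (203), Npy (100.5), Pvalb (45.6), Calb1 (24.2), Vip (17.0), Calb2 (7.94), Cort (6.52), Nos1 (4.13) and Reln (3.42). Sst and Cck overlapped there, as did Calb1 with Vip and each neighbouring pair from Calb2 down. In WT the order was Sst (316), Cck (203), Npy (87.5), Calb1 (43.4), Pvalb (27.4), Calb2 (16.9), Vip (13.3), Nos1 (9.28), Cort (7.53) and Reln (4.23). There the 3 most abundant were separate from each other and from the rest, and each neighbouring pair from Calb1 down overlapped.

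**Figure D1:**
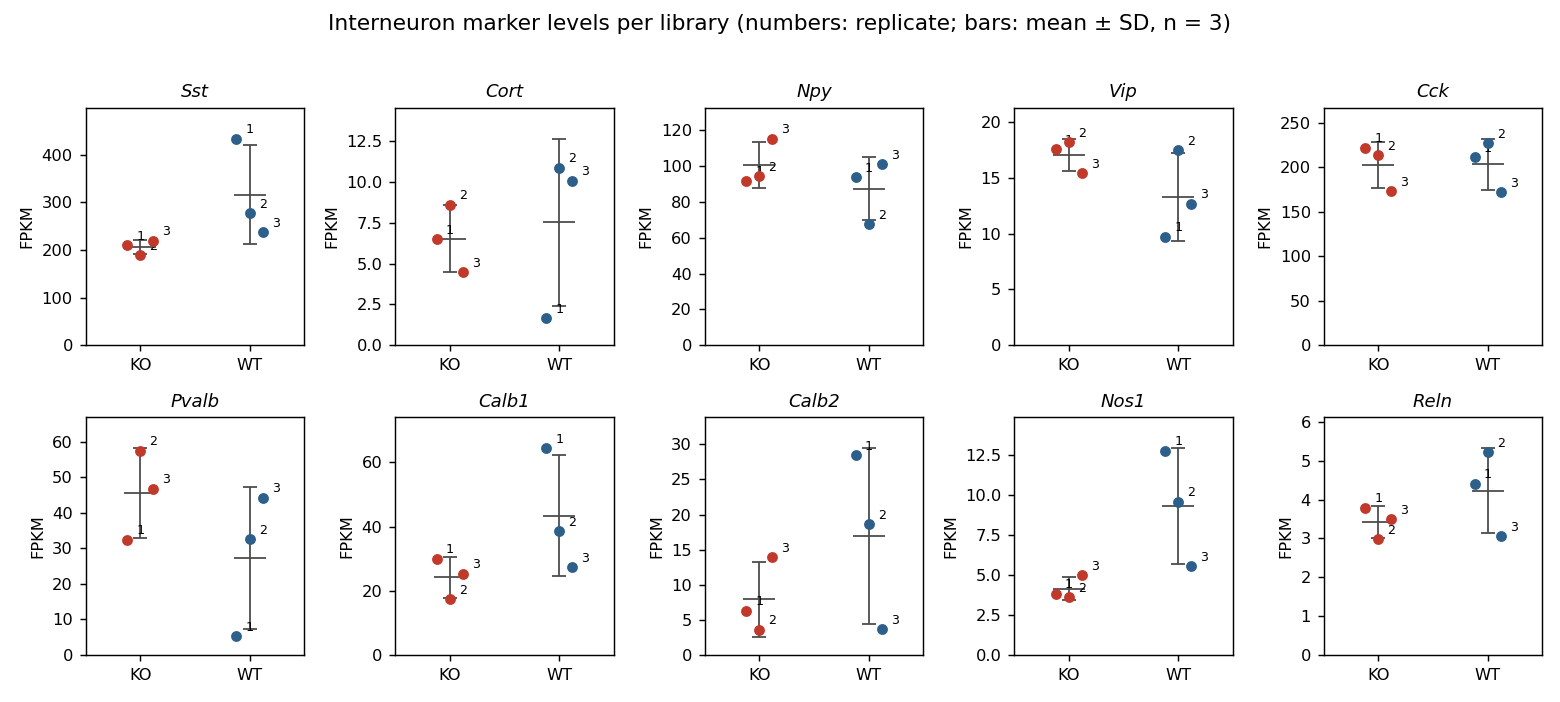
FPKM (vertical axes, from 0) of the 10 interneuron markers in 3 KO and 3 WT libraries; each point is a library with its replicate number, and the bar shows the mean ± SD. WT1 has the highest Sst, Calb1, Calb2 and Nos1 and the lowest Pvalb, Vip and Cort of the 6 libraries.

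Somatostatin mRNA was lower on average in KO. Sst encodes the precursor of the inhibitory peptide somatostatin and lies on chromosome 16 from 23889573 to 23890958 (GRCm38, minus strand). It was at 210.2, 189 and 219 FPKM in KO1 to KO3 (206 ± 15.4, SD, n = 3), against 433, 277 and 237 FPKM in WT1 to WT3 (316 ± 103, SD, n = 3). The groups did not overlap, but WT3 was close to KO3 and WT1 stood far above the rest. KO had 0.653 times the WT mean, a log2 fold change of -0.57 (SE 0.22, limma adjusted p = 0.331), with 2489, 2366 and 2606 reads in KO and 5839, 3205 and 2885 in WT. Without WT1 it was -0.32 (SE 0.13, limma adjusted p = 0.527), with a ratio of the means of 0.802. Scaling the libraries to a common sum gave -0.51, and the groups then overlapped.

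Cort encodes cortistatin, a peptide related to somatostatin that is made by a subset of cortical interneurons. It lies on chromosome 4 from 149125034 to 149126763 and was at 6.47, 8.60 and 4.48 FPKM in KO, against 1.66, 10.9 and 10.1 FPKM in WT. WT1 was the lowest library and WT2 and WT3 the highest, so the KO values lay inside the WT range. This gave a log2 fold change of 0.06 (SE 0.56, limma adjusted p = 0.971), and of 0.38 (adjusted p = 0.753) without WT3. Without WT1 it turned to -0.65 (SE 0.23, limma adjusted p = 0.506), and the KO values then lay wholly below the 2 remaining WT values, as they did for 13.3% of all tested genes. The WT1 value rested on 21 reads, with an exact 95% Poisson interval of 13.0 to 32.1 that covers counting error only, against 115 and 118 reads in the other WT libraries. Cort and Sst thus stood at opposite ends in WT1: the ratio of Sst to Cort was 32.5, 22.0 and 48.9 in KO and 261, 25.5 and 23.6 in WT1 to WT3.

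Npy encodes neuropeptide Y, a peptide of somatostatin and neurogliaform cells known to dampen fear and anxiety-like behaviour in rodents. On chromosome 6 from 49822710 to 49829507, it was at 91.9, 94.2 and 115 FPKM in KO (100.5 ± 12.9, SD, n = 3) and at 93.8, 67.6 and 101 FPKM in WT (87.5 ± 17.6, SD, n = 3). The groups overlapped, and the lowest library was WT2. A log2 fold change of 0.21 (SE 0.18, limma adjusted p = 0.586) had a 95% interval of -0.20 to 0.62; it was 0.32 (adjusted p = 0.372) without WT3. Within a library Sst exceeded Npy 2.29, 2.01 and 1.90 times in KO1 to KO3 and 4.62, 4.10 and 2.34 times in WT1 to WT3, where WT3 was close to KO1.

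Vip and Cck overlapped between genotypes. Vip encodes vasoactive intestinal peptide, and on chromosome 10 from 5639218 to 5647617 it was at 17.6, 18.2 and 15.4 FPKM in KO, against 9.71, 17.5 and 12.7 FPKM in WT. WT2 lay within the KO range, with WT1 lowest. KO averaged 0.37 above WT on the log2 scale (SE 0.19, limma adjusted p = 0.412), with a ratio of the means of 1.28. Without WT1 the difference was 0.18 (SE 0.15, adjusted p = 0.705) and the ratio 1.13, and without WT2 the difference was 0.57 with no overlap (adjusted p = 0.254), where 19.7% of all tested genes had KO wholly above WT.

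Cck encodes cholecystokinin, a peptide of basket cells and of many projection neurons. On chromosome 9 from 121489824 to 121495694, it was at 222, 213 and 173 FPKM in KO and at 212, 227 and 172 FPKM in WT. KO3 and WT3 were the lowest library of their groups. Its log2 fold change was -0.0039 with a 95% interval of -0.37 to 0.36 (limma adjusted p = 0.993), and it changed sign in 5 of 16 alternatives, being 0.029 without WT1 and -0.12 without WT3. This was the marker with the smallest spread, 1.32-fold between its highest and lowest library.

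Among the calcium buffers, Pvalb had the widest range over the 6 libraries, 11.1-fold against 7.89-fold for Calb2, with WT1 far lowest. Between KO libraries Calb2 varied more, 3.86-fold against 1.77-fold. Pvalb encodes parvalbumin, an EF-hand protein that speeds the decay of calcium transients in fast-spiking cells, and lies on chromosome 15 from 78191114 to 78206400. It was at 32.5, 57.5 and 46.8 FPKM in KO (45.6 ± 12.6, SD, n = 3), against 5.19, 32.6 and 44.3 FPKM in WT (27.4 ± 20.1, SD, n = 3). WT1 was 0.121 times the mean of the other 5 libraries, and WT2 and WT3 lay within the KO range. Pvalb had a log2 fold change of 1.10 (SE 0.70, limma adjusted p = 0.478), and of 0.22 (SE 0.26, adjusted p = 0.782) without WT1. Without WT3 it was 1.65 (SE 0.66, adjusted p = 0.261). With replicate number as a block, a pairing that the labels do not give, it was again 1.10. The 95% interval was then 0.032 to 2.18 (limma unadjusted p = 0.0455, adjusted p = 0.275). The low WT1 value rested on 101 reads (exact 95% Poisson interval 82.3 to 123, counting error only) against 544 and 778 in the other WT libraries. Among the 500 tested genes nearest in mean level, 99.8% had a smaller SD than Pvalb over the WT libraries.

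Calb1 encodes calbindin-D28k, found in many somatostatin and parvalbumin cells of the basolateral amygdala and in other neurons. It lies on chromosome 4 from 15881264 to 15908064, and was at 29.9, 17.3 and 25.3 FPKM in KO, against 64.3, 38.5 and 27.4 FPKM in WT. WT3 lay between KO3 and KO1, so the groups overlapped. The ratio of the means was 0.557 and the log2 fold change -0.77 (SE 0.32, limma adjusted p = 0.347). Without WT1 it was -0.44 (adjusted p = 0.604), and without WT3 it was -1.05 with no overlap (adjusted p = 0.194), where 19.1% of all tested genes had KO wholly below WT.

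Calb2 encodes calretinin, a marker of many VIP cells and of neurons outside the interneuron classes. On chromosome 8 from 110137502 to 110168210, it was at 6.29, 3.61 and 13.9 FPKM in KO and at 28.5, 18.7 and 3.64 FPKM in WT. WT1 and WT2 were above every KO library, while WT3 was level with the lowest. KO differed from WT by -0.81 on the log2 scale (SE 0.71, limma adjusted p = 0.607), -0.27 without WT1 and -1.60 (adjusted p = 0.194) without WT3. The ratio of these VIP cell markers varied between libraries: Vip was 2.79, 5.04 and 1.11 times Calb2 in KO1 to KO3 and 0.341, 0.936 and 3.49 times Calb2 in WT1 to WT3.

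Nos1 had the smallest p of the 10. It encodes neuronal nitric oxide synthase, strongly expressed in a sparse class of long-range somatostatin and neuropeptide Y cells and at lower levels in other neurons, and lies on chromosome 5 from 117781032 to 117958840. It was at 3.83, 3.60 and 4.96 FPKM in KO (4.13 ± 0.731, SD, n = 3), against 12.7, 9.57 and 5.54 FPKM in WT (9.28 ± 3.60, SD, n = 3). The groups did not overlap, but WT3 and KO3 were neighbours. KO had 0.445 times the WT mean, a log2 fold change of -0.95 (SE 0.26, limma adjusted p = 0.302), on 701, 696 and 912 reads in KO and 2654, 1710 and 1043 in WT. It was negative with an unadjusted p under 0.05 in 16 of 16 alternatives, at log2 fold changes of -1.35 to -0.71. The adjusted p ranged from 0.106 to 0.685. These alternatives reuse the same libraries, and the filters, the variance trend and the block cannot move the log2 fold change. Without WT1 it was -0.71 (SE 0.23, adjusted p = 0.505) and still without overlap, and without WT3 it was -1.24 (SE 0.17, adjusted p = 0.106). An antisense gene overlapping Nos1, Gm26995, averaged 0.0438 FPKM.

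Reln encodes reelin, the secreted glycoprotein that guides migrating neurons in development and marks several adult interneuron groups. On chromosome 5 from 21884454 to 22344702, it was at 3.80, 2.97 and 3.49 FPKM in KO and at 4.41, 5.21 and 3.06 FPKM in WT. WT1 and WT2 were above all KO libraries and WT3 was not. Reln had a log2 fold change of -0.23 (SE 0.17, limma adjusted p = 0.552), and of -0.40 (adjusted p = 0.226) without WT3.

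**Figure D2:**
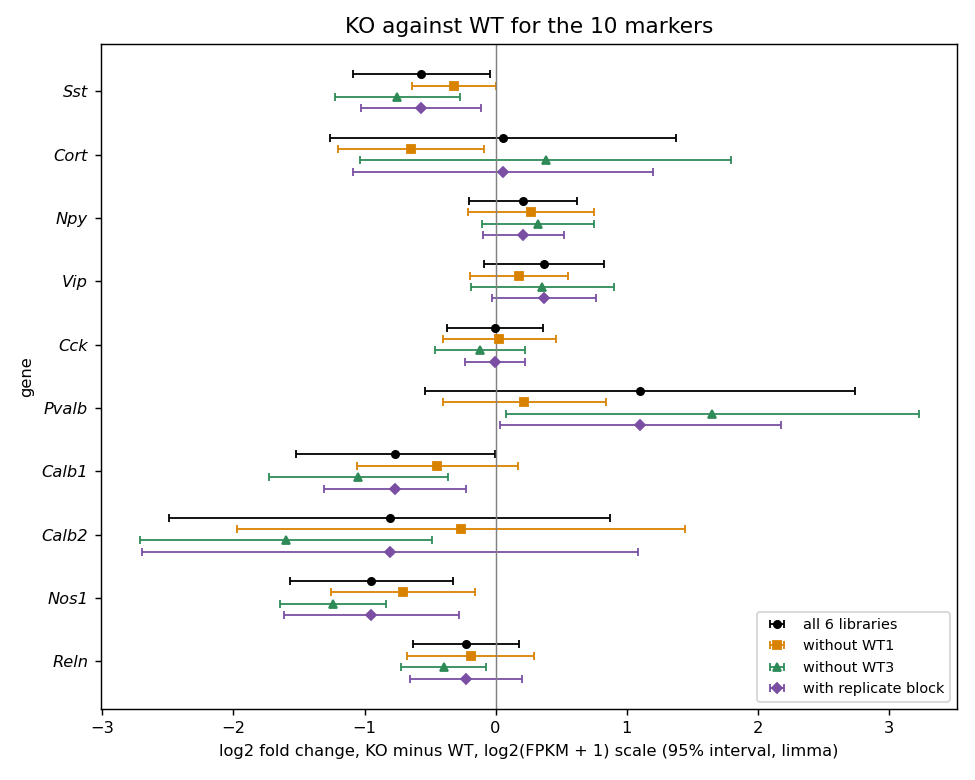
Log2 fold change of KO over WT (horizontal axis, log2(FPKM + 1) scale, 95% interval from limma) for each marker with all 6 libraries, without WT1, without WT3 and with replicate number as a block. The interval of Nos1 is below 0 in each of the 4 fits, and Cort changes side without WT1.

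Several markers varied widely among the WT libraries. WT1 was the highest of the 6 libraries for 4 of 10 (Sst, Calb1, Calb2 and Nos1) and the lowest for 3 (Pvalb, Vip and Cort), and KO2 was the lowest for 5 (Sst, Calb1, Calb2, Nos1 and Reln). The mean absolute deviation of the 10 from their own 6-library means was 0.19, 0.50 and 0.29 log2 units in KO1 to KO3 and 0.88, 0.40 and 0.35 in WT1 to WT3. Between highest and lowest WT library the spread was 8.53-fold for Pvalb, 7.83-fold for Calb2 and 6.56-fold for Cort, against 1.77-fold, 3.86-fold and 1.92-fold between KO libraries. The 10 summed to 624, 609 and 622 FPKM in KO and 865, 705 and 616 FPKM in WT, most of it from Sst and Cck.

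**Figure D3:**
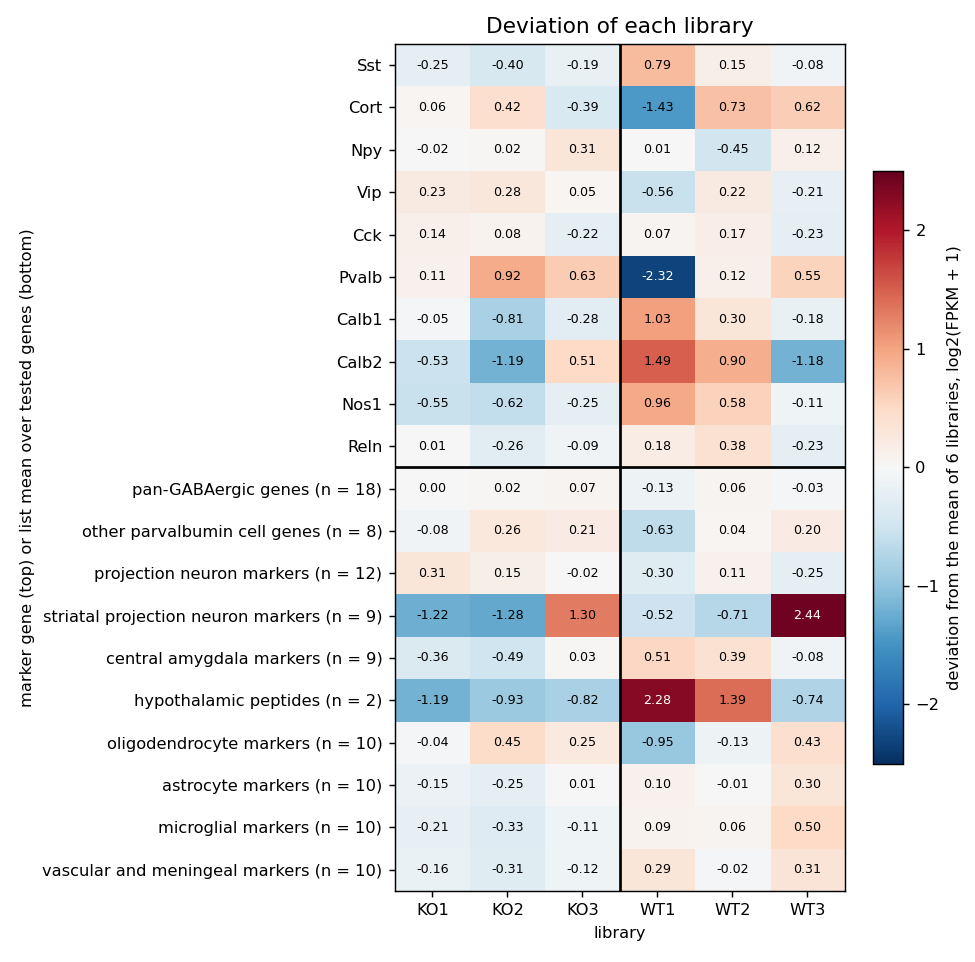
Deviation of each library (columns, KO left of WT) from the mean of the 6 libraries in log2(FPKM + 1) units, for the 10 markers (above the line) and as the mean over the tested genes of 10 lists (below it). WT1 reaches -2.32 for Pvalb and 1.49 for Calb2, and WT3 reaches 2.44 for the striatal list.

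Some markers of other cells moved with these levels. WT1 and WT2, where Sst, Calb1, Calb2, Nos1 and Reln were above their 6-library means, were also the highest for the hypothalamic and central amygdala lists. Of the 10 hypothalamic peptides 2 were tested, Trh and Avp, and both were lower on average in KO. Avp, the vasopressin gene, was at 0.528, 0.600 and 0.105 FPKM in KO and 11.3, 2.16 and 0.616 FPKM in WT. Oxt was listed at 0 in KO1 and KO2 and was at 1.13 FPKM in KO3, against 2.39, 0.232 and 0.882 FPKM in WT1 to WT3. Gal was listed at 0 in KO1 and KO2 and was at 0.511 FPKM in KO3, against 1.95, 0.526 and 0.416 FPKM in WT, while Pmch was listed at 0 in all 3 WT libraries. The 10 central amygdala markers summed to 45.5 to 59.9 FPKM in KO and 62.7 to 67.0 FPKM in WT. Of 9 tested, 3 were higher and 6 lower on average, with a median log2 fold change of -0.34. Isl1 was not tested. It was listed at 0 in KO1 and KO2 and was at 0.812 FPKM in KO3, against 0.216, 0.347 and 0.913 FPKM in WT1 to WT3. The members of smallest p in this list were Calcrl, Nts and Dlk1. The peptide gene Nts was at 0.439, 0.231 and 1.22 FPKM in KO and 9.72, 3.45 and 0.664 FPKM in WT. The central amygdala list was split in WT1. Calcrl, Nts, Dlk1, Prkcd and Tac2 were highest there, while Crh (3.32 FPKM), Ezr (12.8 FPKM) and Pdyn (9.33 FPKM) were lowest. The part of these cells in the Sst, Calb1, Calb2 and Nos1 values was not tested.

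WT1, lowest in Pvalb and Cort, was also lowest for the oligodendrocyte list and for Neurod6 and Tbr1. The 10 oligodendrocyte markers summed to 533 to 751 FPKM in KO and 257 to 747 FPKM in WT, all 10 higher on average in KO with a median log2 fold change of 0.46 and 0 called. Cldn11, Mog and Ermn had the smallest p of that list. Of 12 projection neuron markers 9 were higher on average in KO (median 0.10, 0 called). Neurod6, a transcription factor of these neurons, was at 27.1, 34.1 and 28.8 FPKM in KO and 7.06, 18.3 and 17.0 FPKM in WT, and Tbr1 was at 52.2, 46.8 and 39.4 FPKM in KO and 19.8, 30.4 and 35.3 FPKM in WT. Their part in the Pvalb and Cort values was not tested.

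WT3 and KO3 carried the most striatal signal. All 9 tested striatal markers were lower on average in KO (median -0.53, 0 called). Drd2 was at 0.263, 0.453 and 20.6 FPKM in KO and 2.06, 1.37 and 56.5 FPKM in WT, and Penk, Ppp1r1b and Adora2a had the smallest p. Leaving out both libraries gave log2 fold changes of -0.79 for Sst, -1.10 for Calb1, -2.05 for Calb2, -1.35 for Nos1 and -0.41 for Reln, each without overlap between 2 KO and 2 WT libraries and with adjusted p of 0.324, 0.335, 0.245, 0.221 and 0.341. Vip lay wholly above WT in the same fit (0.42, SE 0.27, adjusted p = 0.469). With those 4 libraries 25.6% of all tested genes had KO wholly below WT and 27.5% wholly above. The WT libraries left, WT1 and WT2, were those highest in hypothalamic peptides. Those peptides summed to 2.40 and 2.78 FPKM in KO1 and KO2 and to 36.8 and 26.3 FPKM in WT1 and WT2. Trh alone was at 18.7 and 21.6 FPKM in WT1 and WT2, so the WT2 sum was mostly 1 gene. Genotype and that tissue signal cannot be told apart in this fit. The fits without WT3 also kept only WT1 and WT2 as WT. Over all 6 libraries the sums did not overlap either, at 2.40 to 4.50 FPKM in KO and 4.94 to 36.8 FPKM in WT, with WT3 close to KO3. The fit of all 6 libraries therefore shares this limit, and the fit without WT1 kept WT2.

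Genes that GABAergic neurons share showed no common direction. Of 18 pan-GABAergic genes tested, 10 were higher and 8 lower on average in KO, with a median log2 fold change of 0.03 and 0 called. At an unadjusted p under 0.05, 2 of the 18 were higher and 1 lower, against 7.05% and 7.25% of all tested genes. Gad1, which makes GABA, was at 52.4, 53.3 and 60.7 FPKM in KO and 44.2, 49.6 and 51.9 FPKM in WT. Slc32a1, the vesicular GABA transporter, was at 36.4, 35.2 and 43.1 FPKM in KO and 52.6, 43.2 and 52.7 FPKM in WT (log2 fold change -0.36, SE 0.13, adjusted p = 0.317). Lhx6, the factor of parvalbumin and somatostatin lineages, had a log2 fold change of 0.05 (adjusted p = 0.857). Satb1, also among the members of smallest p, was at 10.8, 11.9 and 8.47 FPKM in KO and 2.15, 7.94 and 6.06 FPKM in WT.

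Set against the mean of 3 GABAergic genes within each library, Sst and Nos1 lay lower and Npy higher in KO, with no overlap but narrow gaps for Sst and Npy. The measure was a marker's log2(FPKM + 1) minus the mean of Gad1, Gad2 and Slc32a1, a mean that itself differed by -0.08 between KO and WT. For Sst it was 2.21 ± 0.07 in KO and 2.69 ± 0.42 in WT, and for Nos1 -3.13 ± 0.06 in KO and -2.27 ± 0.55 in WT (SD, n = 3). For Npy it was 1.17 ± 0.07 in KO and 0.88 ± 0.23 in WT. The highest KO library was at 2.28 and the lowest WT library at 2.30 for Sst, and the lowest KO library was at 1.09 and the highest WT library at 1.08 for Npy. On this measure KO lay wholly below WT for 4.83% and wholly above for 9.67% of all tested genes. Each of these 3 gave an exact two-sided permutation p of 0.1, the smallest that 3 against 3 libraries can give, so none could pass 0.05; the other 7 markers overlapped, with p of 0.2 or more. Averaged over the 10 markers the difference was -0.08, and 0.086 without WT2. The reference mean joined genes that moved apart. Gad1 lay wholly above WT in KO (log2 fold change 0.19) and Slc32a1 wholly below (-0.36). How far the results for Sst, Npy and Nos1 depend on the reference gene was not tested.

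**Figure D4:**
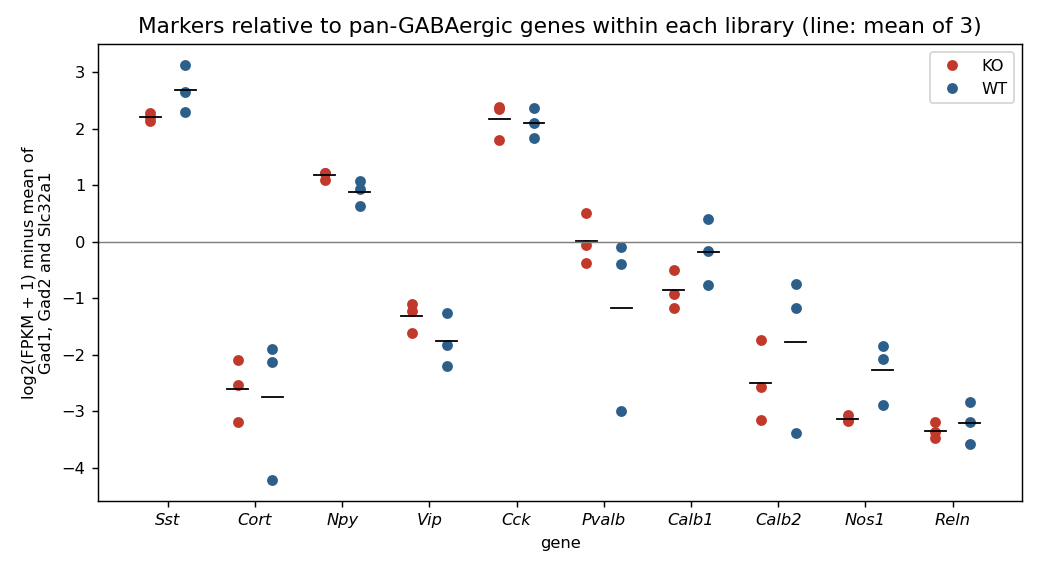
Level of each marker relative to the mean of Gad1, Gad2 and Slc32a1 in the same library (vertical axis, log2 units) for 3 KO and 3 WT libraries; the short line is the mean of 3. KO and WT points are separate for Sst, Npy and Nos1, and the WT point near -3.00 for Pvalb is WT1.

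Other genes of the same classes were measured beside the markers. Of 8 other parvalbumin cell genes 6 were higher and 2 lower on average in KO (median 0.35, 0 called). Their mean deviation from the 6-library mean was -0.63 log2 units in WT1. WT2 (0.04) and WT3 (0.20) lay within the KO range of -0.08 to 0.26, as for Pvalb. Among those of smallest p, the fast potassium channel gene Kcnc2 was at 21.5, 24.6 and 19.3 FPKM in KO and 9.56, 17.5 and 15.2 FPKM in WT (log2 fold change 0.63, SE 0.21, limma adjusted p = 0.305). Cplx1 and Kcns3 followed, with log2 fold changes of 0.51 and 0.43. Of 9 other somatostatin cell genes 4 were tested, 1 higher and 3 lower (median -0.13), with Tacr1, Elfn1 and Cbln4 of smallest p. Elfn1, which sets the facilitation of synapses onto somatostatin cells, was at 7.97, 6.83 and 6.21 FPKM in KO and 11.4, 8.29 and 6.42 FPKM in WT.

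Of 11 other VIP and CCK cell genes 10 were tested, 3 higher and 7 lower on average (median -0.13, 0 called). Nr2f2, a factor of caudally born interneurons that is also active in other amygdalar neurons, was at 2.40, 1.07 and 1.79 FPKM in KO and 15.5, 7.96 and 2.28 FPKM in WT, so WT1 and WT2 were far above the rest. Pcdh18 and Cxcl14 followed with log2 fold changes of -0.36 and -0.23, and Htr3a, the ionotropic serotonin receptor of these cells, had a log2 fold change of -0.0076. Of 7 other neurogliaform cell genes 4 were higher and 3 lower (median 0.15), with Lamp5, Id2 and Sv2c of smallest p. Lamp5 was at 51.5, 64.8 and 62.2 FPKM in KO and 20.0, 47.4 and 50.5 FPKM in WT.

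The receptors of these peptides were split. Of 14 genes 10 were tested, 5 higher and 5 lower on average in KO (median 0.12, 0 called), and Sstr5, Npy4r, Vipr2 and Cckar were below 1 FPKM. Sstr4, a somatostatin receptor, was at 13.9, 16.0 and 8.74 FPKM in KO and 6.46, 11.0 and 5.61 FPKM in WT (log2 fold change 0.69, SE 0.28, adjusted p = 0.342). Npy5r was at 2.14, 2.28 and 2.87 FPKM in KO and 1.88, 1.47 and 1.88 FPKM in WT, with no overlap (0.32, SE 0.13, adjusted p = 0.347). Npy2r, the presynaptic neuropeptide Y receptor, was at 1.49, 0.972 and 1.97 FPKM in KO and 10.6, 5.29 and 1.52 FPKM in WT (-1.22, SE 0.50, adjusted p = 0.344), with WT1 and WT2 highest as for Calb2.

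Genes that process and store peptides were evenly split, with 7 of 14 higher and 7 lower (median 0.03, 0 called). Cadps, which primes dense-core vesicles, was at 21.1, 23.6 and 21.0 FPKM in KO and 14.9, 18.2 and 14.8 FPKM in WT (log2 fold change 0.44, SE 0.11, adjusted p = 0.302). Pcsk1n, an inhibitor of a prohormone convertase, was at 455, 418 and 357 FPKM in KO and 584, 550.0 and 574 FPKM in WT (-0.48, SE 0.13, adjusted p = 0.302). Pcsk2, a convertase, had a log2 fold change of 0.32.

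Of 16 other neuronal calcium-binding genes 14 were tested, 7 higher and 7 lower on average (median -0.02, 0 called). Hpcal1, a neuronal calcium sensor, was at 21.6, 10.7 and 13.2 FPKM in KO and 153, 68.0 and 20.2 FPKM in WT, with WT1 and WT2 above the rest as for Calb1, Calb2 and Nos1. Vsnl1, also a calcium sensor, was at 442, 462 and 426 FPKM in KO and 288, 371 and 289 FPKM in WT (log2 fold change 0.50, SE 0.14, adjusted p = 0.302), and Kcnip4 had a log2 fold change of 0.29.

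Around Nos1, 9 of 11 nitric oxide pathway genes found in the table were tested, 5 higher and 4 lower on average (median 0.06, 0 called). Nos1ap, an adaptor that binds the synthase, was at 22.1, 23.2 and 15.0 FPKM in KO and 6.22, 13.9 and 9.45 FPKM in WT, the opposite direction to Nos1 and without overlap (log2 fold change 0.99, SE 0.28, adjusted p = 0.302). The kinase gene Prkg2 was at 1.68, 1.16 and 1.65 FPKM in KO and 3.66, 2.58 and 1.85 FPKM in WT, and the phosphodiesterase gene Pde5a had a log2 fold change of 0.27. Around Reln, the 9 reelin pathway genes, Reln included, were 5 higher and 4 lower (median 0.13, 0 called). Pafah1b1, Crkl and Rapgef1 had the smallest p, while the receptors Vldlr and Lrp8 had log2 fold changes of -0.07 and -0.03.

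The genes whose pattern over the 6 libraries was nearest to a marker were found by the root mean square difference of centred log2(FPKM + 1) values. For Pvalb they were Syt2 (0.15), Kcnab3 (0.22) and Mobp (0.34). Syt2, the release sensor of parvalbumin cell terminals, was at 9.05, 13.0 and 10.9 FPKM in KO and 0.882, 7.10 and 10.2 FPKM in WT, with the same low WT1. For Sst they were Dner (0.04), Tmem176a (0.08) and Mcm6 (0.08), for Calb1 Fam19a2 (0.07), Spp1 (0.10) and Tmem35a (0.11), and for Nos1 Arhgap6 (0.09), Zic2 (0.10) and Hcn4 (0.10). Zic2, a zinc finger factor, was at 3.89, 4.45 and 5.98 FPKM in KO and 12.6, 10.1 and 6.46 FPKM in WT.

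The remaining lists described the other cells in the tissue. All 10 microglial markers were lower on average in KO (median -0.41), summing to 133 to 167 FPKM in KO and 187 to 252 FPKM in WT, with C1qa, C1qb and Tyrobp of smallest p. Astrocyte markers were lower for 9 of 10 (median -0.21; Mlc1, Aqp4 and Fgfr3) and vascular and meningeal markers for 9 of 10 (median -0.21; Slc6a13, Dcn and Acta2). Claustrum and endopiriform markers were lower for 5 of 6 (median -0.24; Lxn, Ntng2 and Synpr). Of 5 intercalated cell markers 4 were tested, 2 higher and 2 lower (Htr1f, Meis2 and Tshz1), and of 5 Cajal-Retzius markers only Cdkn1a was tested, with a log2 fold change of 0.21. None of these genes was called.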

How the data were processed

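The deposited table holds FPKM per gene, made by the authors, for 3 CNTNAP4-KO and 3 Wild type libraries. Per the submitters' processing notes the builds were GRCm38 and mm10. Not given in the sources used here are the annotation version, the aligner, the counter and whether strand was used. The product of FPKM and gene length was a whole multiple of a library's smallest step for 100% of values (tolerance 0.01 reads), which gave the reads. Genes with a mean of at least 1 FPKM were tested as log2(FPKM + 1), which understates changes of low genes, with limma 3.58.1 in R 4.3.3 (variance trend, two-sided, Benjamini-Hochberg over 13087 genes, threshold 0.05). The script was tested on simulated data. Alternatives were other pseudocounts, filters and scalings, voom on recovered reads, no variance trend, a replicate block and left-out libraries.

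Deviations from group means of libraries with the same number correlated at 0.17, 0.15 and 0.33 across genes for numbers 1, 2 and 3. On this basis alone, drawn from the values then tested, the replicate numbers were taken as pairs in the blocked fit. The labels give replicate numbers but no pairing, and KO1 correlated more with WT2 (0.28) than with WT1. With that block 0 genes passed, against 1 without it.

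The 10 markers and 21 other lists were chosen with earlier results of these data known. From each list the up to 3 genes of smallest p are named, plus the genes most like Sst, Pvalb and any marker with an unadjusted p under 0.05, taken from protein-coding genes whose SD was not below a set share of the marker's. Avp, Oxt, Gal, Pmch, Isl1, Drd2, Gad1, Lhx6, Htr3a, Elfn1, Zic2, Vldlr, Lrp8, Slc17a7 and Camk2a were named after their values were seen. Of the list symbols, 2 older names are not in the table. The overlap of Reln and Nos1 with antisense genes and pseudogenes cannot be resolved without strand. A few results that the naming rule takes are not reported here.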

Additional observations from a re-analysis of the deposited data

How the results depend on the processing

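No marker passed an adjusted p of 0.05 in any of 16 alternatives (0 of the tested markers in each). The count of all genes past the threshold, 1 in the fit given, was 0 with no filter, 0 with quantile normalization, 0 with no variance trend, 0 with the replicate block, 0 without both libraries numbered 3, and 0 to 9 without any 1 library, the 9 without WT3. The cause was not tested. The block changed no other call at an adjusted p of 0.05, while its unadjusted p for Pvalb was 0.0455 in limma, against 0.156 without the block. The unadjusted split of all genes was 923 higher and 949 lower, and 1224 higher and 580 lower after scaling to a common sum. The changed filters, the fit with no variance trend and the replicate block cannot move a log2 fold change, so they do not test its sign. The other alternatives reuse the same libraries. With that limit, Sst kept its negative sign in 16 of 16 alternatives (-0.79 to -0.32). Calb1 (-1.10 to -0.44), Calb2 (-2.05 to -0.27) and Nos1 (-1.35 to -0.71) did likewise. Pvalb (0.22 to 1.65), Vip (0.18 to 0.57) and Npy (0.04 to 0.32) stayed positive in 16. Reln, under the stricter filter of 5 FPKM and so not tested there, was negative in 15. Cck turned positive with a common sum (0.054) and quantile normalization (0.085), and ranged from -0.12 to 0.11 without any 1 library. Cort ranged from -0.65 to 0.43 without any 1 library. The mean of the markers relative to Gad1, Gad2 and Slc32a1 ranged from -0.18 to 0.086 without any 1 library. Depth limits Cort most, at 21 to 118 reads per library.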
